A study of Sus scrofa with 2 samples.

Results

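The 10 genes described here are known from leukocytes, and FLI1 also from endothelial cells. They were followed through single-nucleus RNA-seq (snRNA-seq) of pig kidney cortex. The genes are PTPRC, IKZF1, ARHGAP15, DOCK2, CD163, MRC1, CSF1R, RUNX1, CCL5 and FLI1, 10 of the 31908 genes in the deposited matrices, found by their gene symbol. All 10 were detected in both libraries. They were picked with their levels in these same libraries in view, so the values below describe the choice and are given with no test. The study took kidneys from slaughtered pigs, flushed them with heparinised saline and kept them cold at 4 °C for about 2 h. The unperfused cortex was sampled from such a kidney, and the perfused cortex after 2 h of ex vivo normothermic machine perfusion at 37 °C with a balanced salt perfusate that held no red blood cells and no albumin. Each condition is 1 library of nuclei from frozen tissue. The conditions differ in time, temperature and pressure at once, and the sources used here do not say whether both pieces came from the same animal, so condition, animal and library cannot be told apart.

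Leukocytes of the kidney cortex are mostly resident macrophages and dendritic cells of the interstitium with smaller numbers of T cells, and flushing can leave blood leukocytes in the vessels. PTPRC (CD45) is the tyrosine phosphatase on the surface of nearly all nucleated blood-derived cells. IKZF1 (Ikaros), RUNX1 and FLI1 are transcription factors of blood cell development, and FLI1 is also a factor of endothelial cells. ARHGAP15 and DOCK2 act on Rac, the small GTPase that drives leukocyte migration. CD163 (the haemoglobin scavenger receptor), MRC1 (the mannose receptor CD206) and CSF1R (the receptor for CSF1 and IL34) mark macrophages, and CCL5 (RANTES) is a chemokine of activated T and natural killer cells.

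The unperfused library held 7179 barcodes and 34415254 unique molecular identifiers (UMIs), and the perfused library 6205 barcodes and 35525592 UMIs. After limits on genes per nucleus and mitochondrial reads and removal of 641 and 489 called doublets, 6389 unperfused and 5421 perfused nuclei remained, with medians of 3755 and 4383 UMIs. The libraries shared 14 barcodes. Clustering without the 10 genes gave 20 clusters, of which cluster 4 was named immune (IMM) from 18 of 30 pan-leukocyte markers. Levels are UMIs per 1000000 UMIs of the same nuclei (CPM). Ratios are perfused over unperfused on the log2 scale with 95% intervals that cover counting error only, since 1 library per condition gives no replicate spread.

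All 10 genes had a higher level in the perfused library, and 9 were past 2-fold (a log2 ratio over 1). Of all 19633 genes with at least 20 UMIs, 491 were past 2-fold in that direction, a share of 2.50%. The median log2 ratio was 1.47 over the 10 genes and -0.08 over all genes tested. The genes were chosen on this contrast, so the count is not evidence about them.

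Among the genes shared by most leukocytes, PTPRC had 1105 UMIs before perfusion and 2376 after it, or 41.4 and 87.7 CPM. The log2 ratio was 1.08 (0.98 to 1.19). IKZF1 had 260 and 769 UMIs, 9.74 and 28.4 CPM, with a log2 ratio of 1.54 (1.34 to 1.75). The level was higher after perfusion for both, and their CPM intervals in the 2 libraries did not overlap. ARHGAP15 went from 900 to 2741 UMIs, 33.7 and 101 CPM, a log2 ratio of 1.58 (1.48 to 1.69). DOCK2, the exchange factor that activates Rac in lymphocytes and neutrophils, had 379 and 922 UMIs, 14.2 and 34.0 CPM, with a log2 ratio of 1.26 (1.09 to 1.44). RUNX1 had 801 and 2729 UMIs, 30.01 and 101 CPM (log2 ratio 1.75, 1.63 to 1.86). The RUNX1 interval overlapped those of IKZF1 and ARHGAP15 and lay above those of PTPRC and DOCK2.

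The 3 macrophage receptors were all past 2-fold. CD163 had 179 and 533 UMIs, 6.71 and 19.7 CPM, a log2 ratio of 1.55 (1.30 to 1.80). MRC1 had 200 and 465 UMIs, 7.49 and 17.2 CPM, a log2 ratio of 1.19 (0.95 to 1.44). CSF1R had 176 and 469 UMIs, 6.59 and 17.3 CPM (log2 ratio 1.39, 1.14 to 1.65). The intervals of the 3 ratios overlapped one another.

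CCL5 had the highest ratio of the 10 genes, from 79 to 363 UMIs and 2.96 to 13.4 CPM, a log2 ratio of 2.18 (1.82 to 2.55), or 4.52-fold. FLI1 had the lowest, from 3263 to 4577 UMIs and 122 to 169 CPM (log2 ratio 0.47, 0.40 to 0.53). The FLI1 interval lay below those of the other 9 genes, and the CCL5 interval overlapped that of RUNX1 alone. Endothelial nuclei (EC) held 70.1% of FLI1 UMIs before and 49.1% after perfusion. They took a smaller share of the perfused library, 14.92% of nuclei against 20.25%. Over all nuclei other than EC, FLI1 had 975 and 2328 UMIs, 40.5 and 92.8 CPM, and its log2 ratio was 1.19 (1.09 to 1.30), so that all 10 genes were past 2-fold there, where 3.68% of 19338 genes were.

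**Figure D1:**
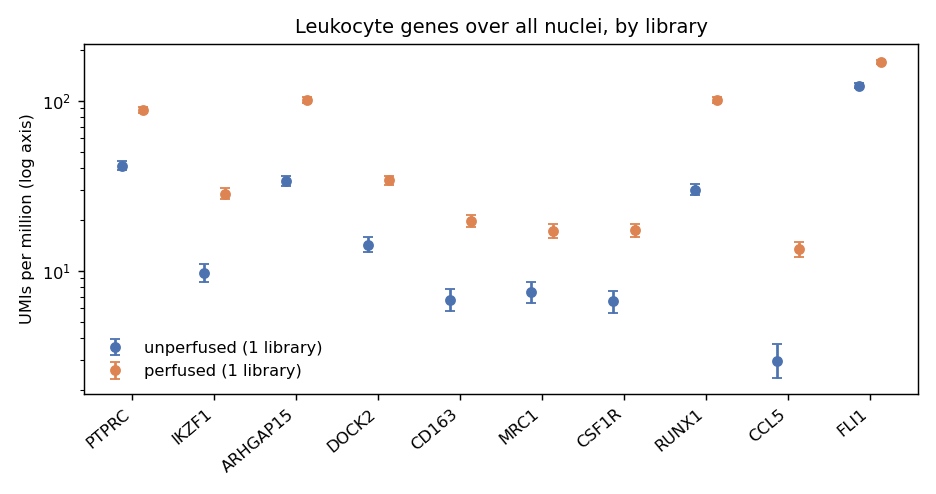
Level of each of the 10 genes over all nuclei in CPM (log axis), with 1 point per library and bars for the exact 95% Poisson interval, which covers counting error only. The perfused point lies above the unperfused point for every gene, with the widest gap at CCL5 (2.96 and 13.4) and the narrowest at FLI1 (122 and 169).

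Other leukocyte genes were read from 5 lists that leave the 10 genes out, of which 89 genes were in the matrices and 79 had at least 20 UMIs. Of these, 42 were past 2-fold in the perfused library against 2.50% of all genes, and their median log2 ratio was 1.13. Of 29 pan-leukocyte genes 16 were past 2-fold (median 1.08), and all 29 were higher. The most abundant of them by UMIs were INPP5D, a lipid phosphatase of blood cells (773 and 1665 UMIs, 1.08), IRF8, an interferon regulatory factor (841 and 1024 UMIs, 0.26), and HCLS1, an actin regulator (816 and 1003 UMIs, 0.28). Of 19 macrophage genes 9 were past 2-fold (median 0.71), with MERTK (0.06), SLC9A9 (0.66) and CTSS (0.18) the most abundant and the complement genes C1QA, C1QB and C1QC at 2.31, 1.90 and 2.13. The complement genes were singled out after their values were seen.

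Of 20 T cell genes 14 were past 2-fold (median 1.38). Among the most abundant were the adapter SKAP1 (0.79) and the transcription factor TCF7 (-0.99), while CD3E, a chain of the T cell receptor complex, had 55 and 254 UMIs and a log2 ratio of 2.19. Of 7 B cell genes 3 were past 2-fold (median 0.18), and JCHAIN, BANK1 and PAX5 were at 0.18, 1.20 and -0.31. None of 4 granulocyte genes was past 2-fold (median -0.58), with CSF3R at -0.46, HDC at -1.80 and MS4A2 at 0.93. S100A8 and S100A12 had no UMI in either library. UMIs of the lists were not particular to leukocytes: of the 3654 unperfused and 3666 perfused nuclei with at least 3 list UMIs, 1271 and 890 were proximal tubule (PT).

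Of the 10 genes, 8 had the largest part of their UMIs in the immune cluster in both libraries, while FLI1 had it in EC in both and CCL5 in tubules before perfusion. Nuclei of the immune cluster were 277 of 6389 in the unperfused library, 4.34% (3.85 to 4.86), and 799 of 5421 in the perfused library, 14.74% (13.81 to 15.71). Their median depth was 1407 and 1540 UMIs, and the median mitochondrial share of their UMIs was 0.60% before and 1.57% after perfusion, against 0.08% and 0.12% over all nuclei. The part of nucleus quality in this difference was not tested. This cluster was not of 1 kind. A second clustering of it gave 6 subclusters, and those that held most of it differed between the libraries: subcluster 1, led by the fibroblast genes DPT, IGFBP6 and LUM, was the largest in the unperfused library with 85 nuclei, and subcluster 0, unnamed and of low depth (median 949.5 and 1009 UMIs), was the largest in the perfused library with 277 nuclei against 20. Against all nuclei outside the cluster, subcluster 0 had 4 of 30 pan-leukocyte, 5 of 20 macrophage and 1 of 21 T cell markers, and 8 of 11 stromal markers. Subcluster 4 carried 9 of 10 endothelial markers. Subcluster 5, with 16 and 21 nuclei, had 7 of 9 PT markers higher than in the other immune nuclei, but against all nuclei outside the cluster it had 1 of 9 PT and 21 of 30 pan-leukocyte markers.

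Subclusters 2 and 3 were named from leukocyte markers. Subcluster 2 had 54 unperfused and 124 perfused nuclei, 20 of 30 pan-leukocyte and 13 of 20 macrophage markers higher than in nuclei outside the cluster, and LRRC18, WDFY4, PKIB and P2RY6 among its leading genes. Subcluster 3 had 50 and 111 nuclei and 18 of 21 T cell markers, was led by BCL11B, CD3E, NLRC3 and STAT4, and is called T-like here. Together they made up 1.63% (1.33 to 1.97) of unperfused and 4.33% (3.81 to 4.91) of perfused nuclei. In these nuclei the stromal list was at 636 CPM before and 1784 CPM after perfusion, and their median mitochondrial share was 0.30% and 0.64%. A cut that uses only the 5 lists, at least 5 list UMIs and at least 5 per 1000 UMIs of the nucleus, took 171 unperfused nuclei, 2.68% (2.29 to 3.10), and 512 perfused nuclei, 9.44% (8.68 to 10.25). These are called leukocyte-rich. Of them 145 and 412 were in the immune cluster and 16 and 86 in the stromal class (STROMA), and the cut was set after the data were seen. Their median mitochondrial share was 0.33% and 0.95%, and the stromal list in those of the immune cluster was at 1162 and 2738 CPM. The part of stromal RNA and of nucleus quality was not tested. A share of recovered nuclei need not be the share in the tissue.

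Between 26.6% of CCL5 UMIs and 61.5% of CD163 UMIs of the unperfused library were in the immune cluster, with FLI1 at 8.4%. In the perfused library the range ran from 47.5% for MRC1 to 65.3% for RUNX1, with FLI1 at 23.5%. The 8 tubule classes held between 11.2% (CD163) and 51.9% (CCL5) of the UMIs of the genes other than FLI1 before perfusion, and between 3.8% (CD163) and 13.5% (CCL5) after it. In tubules the level itself was low in both libraries, 7.35 and 7.45 CPM for PTPRC, 0.961 and 1.05 CPM for CD163 and 1.97 and 2.57 CPM for CCL5, and none of the 10 genes was past 2-fold in the 8 classes together, where 1.26% of 18172 genes were. Single tubule classes differed. In the connecting tubule (CNT) 5 of the 9 genes with a ratio were past 2-fold, against 1.74% of 11148 genes, on 89 and 143 UMIs of all 10 genes: PTPRC (1.66), IKZF1 (2.03), ARHGAP15 (1.04) and RUNX1 (2.76) had intervals above 0, and DOCK2 (1.66) did not. Of the 30 perfused RUNX1 UMIs in CNT, 13 were in 1 nucleus, and 2 CNT nuclei of each library were leukocyte-rich by the cut above. Summed over the 10 genes, the log2 ratio was 1.35 (0.96 to 1.75) in CNT and 0.91 (0.18 to 1.66) in the intercalated class IC-B. It was -0.98 (-1.53 to -0.44) in injured PT (71 and 51 UMIs), and the interval held 0 in the other tubule classes. In the clusters left unnamed, outside these classes, all 10 genes were lower (113 and 75 UMIs). Their summed log2 ratio was -1.51 (-1.95 to -1.08). PT nuclei, which should lack these genes, gave the background: PTPRC was seen in 2.3% of unperfused and 2.2% of perfused PT nuclei and CD163 in 0.4% and 0.7%, at median depths of 5291 and 6623 UMIs.

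**Figure D2:**
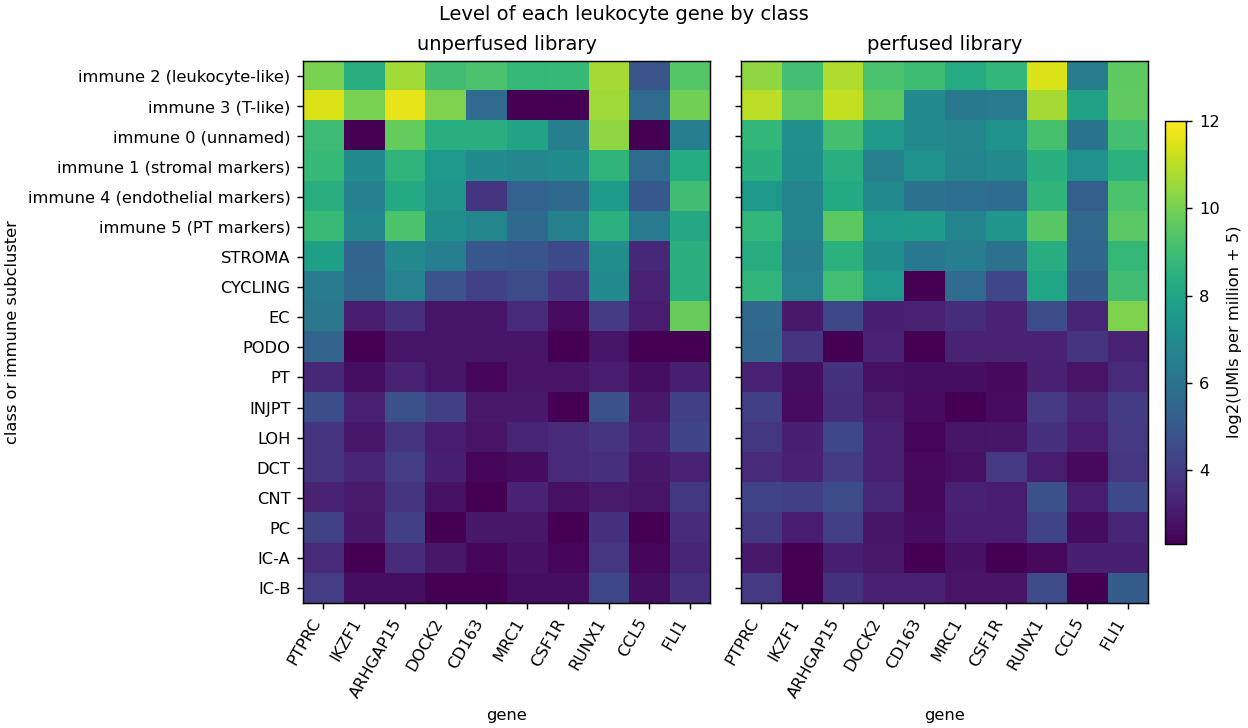
Level of each gene as log2(CPM + 5) in 18 classes and immune subclusters, unperfused library on the left and perfused library on the right. Colours are to be read down a column, since transcript length and capture differ between genes. In the unperfused library MRC1 and CSF1R are bright in subcluster 2 and empty in the T-like subcluster 3. FLI1 is brighter in the T-like subcluster than in EC in the unperfused library, and less bright than in EC in the perfused library.

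Within the leukocyte-like subcluster 2, each macrophage receptor had its highest level of any class or subcluster, in both libraries. CD163 had 589 CPM before and 506 CPM after perfusion (log2 ratio -0.22, -0.64 to 0.21). MRC1 had 428 and 301 CPM (-0.51, -1.02 to 0.02). CSF1R had 444 and 420 CPM (-0.08, -0.56 to 0.41). All 3 ratios were below 0 and all 3 intervals held 0, whereas over all nuclei each gene was past 2-fold. The share of subcluster 2 nuclei with a UMI was 46.3% and 35.5% for CD163, 48.1% and 26.6% for MRC1 and 27 and 47 of the 54 and 124 nuclei for CSF1R. After thinning each nucleus to 1000 UMIs these were 33.3% and 29.2%, 24.4% and 18.9%, and 31.1% and 30.2%.

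In the T-like subcluster the unperfused library had no UMI of MRC1 or CSF1R among 63186 UMIs, which allows up to 47.5 CPM. CD163 had 3 UMIs there, 47.5 CPM. The perfused T-like nuclei had 17 MRC1, 18 CSF1R and 28 CD163 UMIs, or 69.9, 74.0 and 115 CPM. Taking 3 counts for the library at 0, MRC1 was 1.47-fold and CSF1R 1.56-fold higher, with the counting error of the perfused library left out. At least 1 of the 3 receptors was seen in 25 of 111 perfused and 3 of 50 unperfused T-like nuclei. UMIs of the tubule genes LRP2, CUBN, SLC12A1 and UMOD, a measure of free RNA, stood in subclusters 2 and 3 together at 18.0% of their all-nuclei level before and 15.3% after perfusion. The part of free RNA in the receptor counts was not tested.

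PTPRC and IKZF1 showed ratios of different sign in the 2 subclusters. In subcluster 2 PTPRC had 1066 and 1356 CPM (0.35, 0.06 to 0.64), and IKZF1 339 and 542 CPM, log2 0.68 (0.17 to 1.21). In the T-like subcluster PTPRC had 2817 and 2072 CPM, -0.44 (-0.69 to -0.19), and IKZF1 1060 and 740 CPM, -0.52 (-0.93 to -0.09). PTPRC and IKZF1 were higher after perfusion in the first and lower in the second, with intervals clear of 0 on both sides. ARHGAP15 and DOCK2 were likewise lower in the T-like nuclei (-0.53 and -0.55), and in subcluster 2 their ratios of 0.18 and 0.19 had intervals that held 0. The 4 lower values in T-like nuclei come with a higher median depth of 1630 UMIs against 1144.5 and with the macrophage UMIs above, and the part of either was not tested.

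RUNX1, which acts in myeloid and T cell differentiation, was higher in subcluster 2, from 1671 to 2788 CPM (0.74, 0.52 to 0.97), and at 1583 and 1641 CPM in the T-like subcluster, where the interval held 0 (0.05, -0.27 to 0.38). FLI1 was at 694 and 771 CPM in subcluster 2 (0.15, -0.22 to 0.53) and at 981 and 798 CPM in the T-like subcluster (-0.30, -0.72 to 0.14). Both intervals held 0. These levels of FLI1 compare with 867.7 and 1114 CPM in EC.

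Of the 10 genes, CCL5 alone was past 2-fold inside the immune cluster, inside the leukocyte-rich nuclei and inside subclusters 2 and 3 combined. In the immune cluster, where 4.28% of 11215 genes were past 2-fold, it had 21 and 201 UMIs, 39.0 and 107 CPM, a log2 ratio of 1.46 (0.81 to 2.18). In leukocyte-rich nuclei, where 7.78% of 10299 genes were past 2-fold, it had 14 and 174 UMIs, 39.6 and 117 CPM (log2 ratio 1.56, 0.78 to 2.46). The share of these nuclei with a CCL5 UMI was 6.43% and 19.5%, and 2.34% and 9.93% after thinning to 1000 UMIs. In subclusters 2 and 3 combined, where 8.33% of 6542 genes were past 2-fold, it had 6 and 79 UMIs, 32.1 and 151 CPM (log2 ratio 2.24, 1.05 to 3.73). With 1 gene of 10 against these shares, the count is not a result about the 10 genes. In the T-like subcluster CCL5 had 3 and 57 UMIs, 47.5 and 234 CPM (log2 ratio 2.30, 0.68 to 4.62), and 3 of 50 and 29 of 111 nuclei had a UMI. In subcluster 1, with its fibroblast genes, it had 7 and 86 UMIs, 47.0 and 144 CPM (log2 ratio 1.62, 0.52 to 2.98). The unperfused values of CCL5 rest on few UMIs.

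The other 9 genes had log2 ratios over the leukocyte-rich nuclei between -0.61 for CD163 (-0.92 to -0.28) and 0.15 for RUNX1 (-0.01 to 0.31). PTPRC (-0.25), ARHGAP15 (-0.33), DOCK2 (-0.51) and CD163 had intervals below 0. The UMIs of all 10 genes together were 64.5 per 10000 UMIs of the unperfused and 57.5 per 10000 of the perfused leukocyte-rich nuclei. In the immune cluster as a whole these were 43.9 and 42.1 per 10000, a log2 ratio of -0.06 (-0.13 to 0.01), against a log2 ratio of 1.10 (1.06 to 1.14) over all nuclei. FLI1 gave 3263 of the 7342 unperfused and 4577 of the 15944 perfused UMIs in the sum over all nuclei. Over nuclei other than EC the summed log2 ratio was 1.43 (1.39 to 1.48).

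**Figure D3:**
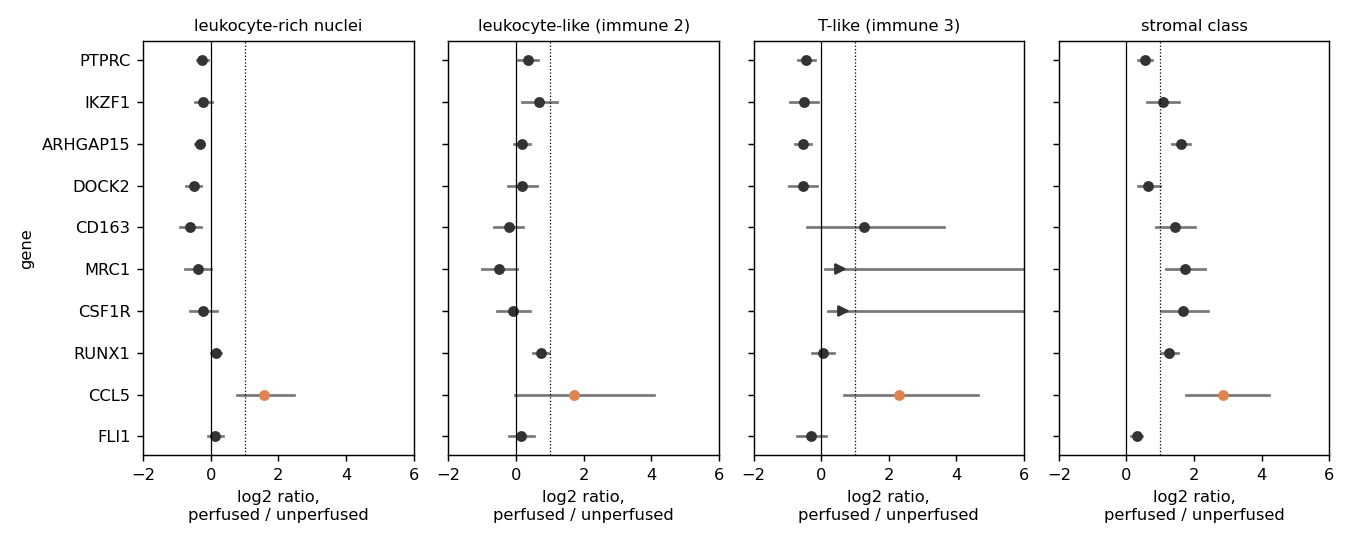
Log2 ratio of the perfused over the unperfused library for each gene in 4 groups of nuclei, with 95% counting intervals, a solid line at 0 and a dotted line at 2-fold. Triangles mark lower bounds where the unperfused library had no UMI. CCL5 (orange) lies to the right of 0 in all 4 panels, and in the stromal class all 10 genes do.

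The over-all ratio of each gene was then split by holding either the UMI share of each class or the level within each class at its unperfused value. Over 19 classes and immune subclusters, changing the shares alone gave PTPRC a log2 ratio of 1.10 and changing the levels alone 0.11, against 1.08 observed. CD163 had 1.38 by shares, 0.42 by levels and 1.55 observed, and RUNX1 had 1.37, 0.67 and 1.75. For these 3 genes and for IKZF1, ARHGAP15, DOCK2, MRC1 and CSF1R the shares gave the larger value. CCL5 went the other way, with 0.66 by shares and 1.21 by levels, and so did FLI1, with 0.15 and 0.34. The order of the 2 parts was the same for all 10 genes when the classes were split into leukocyte-rich and other nuclei instead, where CCL5 had 0.75 by shares and 1.07 by levels. That cut counts leukocyte list UMIs, so a higher list level in a nucleus can count there as a share. The second split is therefore not an independent check.

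**Figure D4:**
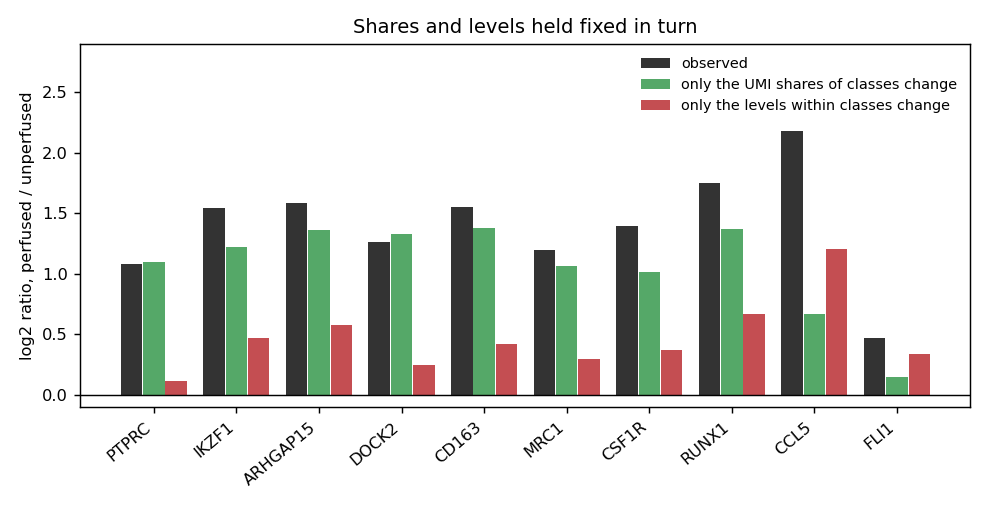
Observed log2 ratio of each gene over all nuclei (black), the ratio if only the UMI shares of 19 classes and immune subclusters had changed (green) and the ratio if only the levels within them had changed (red). Green exceeds red for 8 genes, and red exceeds green for CCL5 (0.66 and 1.21) and FLI1 (0.15 and 0.34).

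The stromal class held 385 unperfused (6.03%) and 586 perfused nuclei (10.81%) and was named from fibroblast, mesangial and smooth muscle markers. All 10 genes were higher in it after perfusion with intervals above 0, and 7 were past 2-fold against 5.69% of 12183 genes. The median mitochondrial share of stromal nuclei was 0.13% before and 0.60% after perfusion, and its part in these ratios was not tested. PTPRC went from 221 to 326 CPM (0.56, 0.36 to 0.76) and ARHGAP15 from 115 to 354 CPM (1.62, 1.36 to 1.88). CD163 went from 26.4 to 71.1 CPM (1.43, 0.88 to 2.01), and the share of stromal nuclei with a CD163 UMI from 2.34% to 14.5%. CCL5 went from 7 to 92 UMIs, 5.61 to 40.6 CPM (2.86, 1.76 to 4.21). CCL5 was seen in 1.56% and 11.3% of stromal nuclei. In perfused PT nuclei the shares were 0.7% for CD163 and 1.3% for CCL5, at a median depth of 6623 UMIs against 2854.5 in perfused stromal nuclei.

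Leukocyte-rich nuclei made up 16 of 385 unperfused and 86 of 586 perfused stromal nuclei. Those nuclei carried stromal RNA beside the list UMIs that selected them. Their stromal list stood at 6156 and 5522 CPM, near the 6651 and 7402 CPM of the other stromal nuclei. Their T cell list stood at 2621 and 2348 CPM against 212 and 333 CPM. The cut counts this list, so a higher value in these nuclei was built in. Their median doublet scores were 0.06 and 0.05 against 0.04 and 0.03. The part of doublets that Scrublet did not call was not tested. Without them, 5 of the 10 genes were still past 2-fold in STROMA, against 4.92% of 11593 genes. PTPRC was then at 182 and 184 CPM (0.01, -0.24 to 0.26), while CD163 was at 11.8 and 54.97 CPM (2.22, 1.41 to 3.15), MRC1 at 21.9 and 64.0 CPM (1.55, 0.93 to 2.23) and CCL5 at 5.88 and 22.1 CPM (1.91, 0.73 to 3.32). The PTPRC interval then held 0, and those of CD163, MRC1 and CCL5 did not. Free RNA in STROMA was 27.5% of the all-nuclei level before and 15.8% after perfusion.

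EC held PTPRC UMIs with few of IKZF1, ARHGAP15 or DOCK2 in the same nuclei. PTPRC had 174 UMIs in 1294 unperfused and 92 UMIs in 809 perfused EC nuclei, 66.0 and 45.6 CPM, and alone of the 10 genes it was lower there with an interval below 0 (-0.53, -0.91 to -0.16). It was seen in 10.36% and 8.65% of EC nuclei against 2.3% and 2.2% of PT nuclei, although EC nuclei were shallower (median 1877 and 2219 UMIs). After thinning to 1000 UMIs the shares were 6.10% and 3.88% in EC and 0.62% and 0.68% in PT. In EC 2 of the 10 genes were past 2-fold, ARHGAP15 (19 and 33 UMIs, 1.18, 0.32 to 2.08) and CSF1R (3 and 9 UMIs, 1.97, -0.03 to 4.49), against 0.997% of 11832 genes. IKZF1 had 9 and 6 UMIs in EC. There were 19.3 and 15.3 PTPRC UMIs per IKZF1 UMI in EC, against 3.16 and 2.67 in the immune cluster. Of the 134 unperfused EC nuclei with PTPRC, 2 had IKZF1, 1 had ARHGAP15 and none had DOCK2, while 76.9% had FLI1. Podocytes (PODO) had a like pattern on few UMIs, with 16 and 9 PTPRC UMIs (37.8 and 40.3 CPM) beside 0 and 2 of IKZF1. A gene model that shares reads with PTPRC was not looked for, as no genome was used.

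FLI1 in EC had 2288 and 2249 UMIs, 867.7 and 1114 CPM (log2 ratio 0.36, 0.28 to 0.44), and 68.5% and 77.8% of EC nuclei had a UMI. After thinning these were 48.8% and 57.6%. EC held 70.1% of all FLI1 UMIs before and 49.1% after perfusion. EC nuclei thus took a smaller share of the perfused library, with a higher FLI1 level within them. In cycling nuclei, a class of 37 and 20 nuclei, PTPRC had 16 and 52 UMIs and ARHGAP15 20 and 68, and 8 of the 20 perfused nuclei had PTPRC.

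The genes were found together in single nuclei. At least 2 of the 10 genes were seen in 576 unperfused nuclei, 9.02%, and in 1118 perfused nuclei, 20.62%, a log2 ratio of 1.19 (1.05 to 1.34). After thinning to 1000 UMIs the shares were 4.30% and 11.9%, with 198 and 334 shallower nuclei left out. At least 5 were seen in 122 and 382 nuclei, 1.91% and 7.05%, and all 10 in 2 nuclei of each library. In PT nuclei, thinned alike, 0.23% and 0.25% had at least 2. The nuclei with at least 2 genes before thinning were not all of the immune cluster. It held 208 unperfused and 608 perfused ones, EC 152 and 121, and STROMA 136 and 303.

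Of perfused nuclei with an IKZF1 UMI, 75% also had PTPRC, 70% ARHGAP15 and 67% RUNX1. In the unperfused library these were 64%, 62% and 56%. Of nuclei with PTPRC, 18% before and 35% after perfusion had IKZF1, and 54% and 60% had FLI1. IKZF1, ARHGAP15 or DOCK2 was seen in 199 of 537 (37.1%) before and 518 of 790 (65.6%) after perfusion of the nuclei with PTPRC. In the leukocyte-rich nuclei alone these shares were 93.4% and 90.6%, and in EC 2.24% and 7.14%. The perfused library also had fewer EC nuclei and more leukocyte-rich ones, as given above.

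The macrophage receptors were found with one another. Of leukocyte-rich nuclei with CD163, 49% and 44% had CSF1R and 54% and 38% had MRC1, in the unperfused and perfused library. CSF1R without a condition on CD163 was seen in 22.2% and 24.6% of leukocyte-rich nuclei, and MRC1 in 24.6% and 20.9%. A macrophage receptor and at least 2 T cell list UMIs were seen in the same nucleus for 15 of 104 unperfused and 51 of 235 perfused nuclei of subclusters 2 and 3.

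CCL5 was seen in 72 unperfused and 257 perfused nuclei. Of these, 25 and 146 had at least 2 T cell list UMIs, 8 and 109 had a macrophage receptor, and 46 and 76 had neither. At least 2 T cell list UMIs were also seen in 16.2% and 21.7% of all nuclei, and in 84.8% and 85.0% of the intercalated class IC-B, so over all nuclei they do not mark T cells. In the leukocyte-rich nuclei, 10 of 11 and 86 of 100 CCL5 nuclei had at least 2 T cell list UMIs. A macrophage receptor was seen in 4 and 52 of them. Of all leukocyte-rich nuclei, 64.3% and 66.8% had at least 2 T cell list UMIs and 42.7% and 47.3% a macrophage receptor. The cut that defines these nuclei counts the T cell list, so the values do not place CCL5 in T cells.

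**Figure D5:**
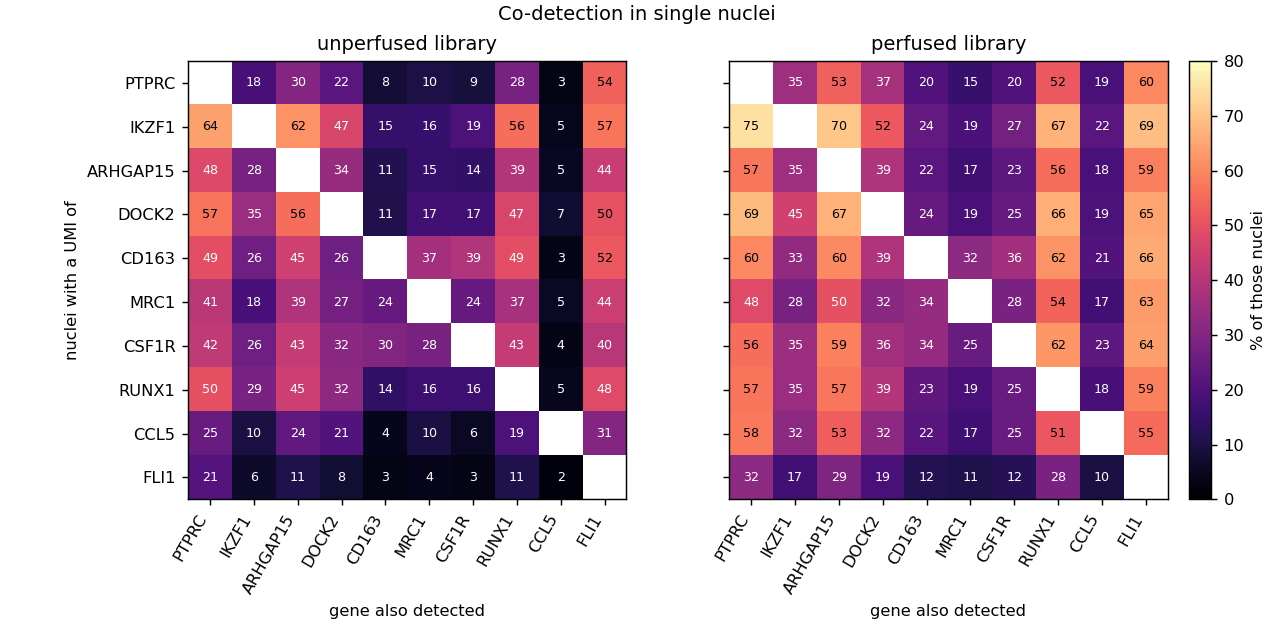
Share (%) of nuclei with a UMI of the gene in the row that also had a UMI of the gene in the column, over all nuclei of each library, with the diagonal left blank. Most cells are higher in the perfused library, as from 64 to 75 for PTPRC given IKZF1 and from 25 to 58 for PTPRC given CCL5, and from 21 to 32 for PTPRC given FLI1.

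Ligands and receptors that pair with the 10 genes were read from a further list. The median log2 ratio of the 6 with at least 20 UMIs was 0.57. The most abundant were CD81, a tetraspanin (0.35), IL34 (1350 and 960 UMIs, -0.51) and CSF1 (243 and 271 UMIs, 0.14). CSF1R was past 2-fold over all nuclei and neither of its ligands, IL34 and CSF1, was. IL34 was read in many classes, among them podocytes (139 and 71.7 CPM), DCT (100.1 and 99.7 CPM) and STROMA (105 and 68.0 CPM). It was also read in the loop of Henle class LOH (85.9 and 57.6 CPM) and in CNT (81.1 and 66.3 CPM). CSF1 was read, among other classes, in EC (44.4 and 26.3 CPM) and injured PT (23.2 and 39.8 CPM). CCR1, a receptor of CCL5, had 2 and 5 UMIs.

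Of 15 genes of leukocyte adhesion and recruitment, 5 were past 2-fold and the median log2 ratio was 0.58. The most abundant, ICAM2, JAM2 and CXCL12, were at 0.22, 0.08 and -0.19. Those past 2-fold were CCL2 (75 and 214 UMIs, 1.49), CCL4 (1.37), CX3CR1 (1.58), CCR2 (2.34) and MADCAM1 (2.12), named after their values were seen, and all but CCL2 had at most 70 UMIs in a library. CCL2, a chemokine that attracts monocytes, was at 16.0 and 50.4 CPM in STROMA and at 10.6 and 2.97 CPM in EC (28 and 6 UMIs).

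Across 35 combinations of class and library with at least 20 nuclei, the genes with the pattern most like that of PTPRC were STK17B, DOCK2 and RUNX1 (Pearson r of 0.97, 0.96 and 0.95 on log2(CPM + 5)). For CD163 they were an unnamed gene with the identifier ENSSSCG00000013788 (0.97), the inflammasome gene NLRP3 (0.95) and the integrin ITGAM (0.95). For CCL5 they were FCER1G, GMFG and GNLY (0.93, 0.93 and 0.92). For FLI1 they were ENSSSCG00000006418 (0.97), HERC6 (0.96) and ENSSSCG00000001341 (0.96). The points share 2 libraries and differ in depth, and the values are descriptions over 15184 genes.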

How the data were processed

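Nuclei from frozen pig cortex were sequenced with droplet 3' chemistry, 1 library per condition. The deposited matrices hold raw UMI counts per gene and barcode, which the authors made with Cell Ranger 5.0.1 on an Ensembl 103 pig annotation, introns included. Correction for free RNA by the authors comes after this stage and is not in these counts. For 811 genes that had only the identifier as symbol, a symbol was filled in from a reference list of gene names.

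Following the study's stated steps, the nuclei retained had 500 to 6000 genes, mitochondrial UMIs of no more than 7% and no Scrublet doublet call (scanpy 1.11.5, per library). Libraries were integrated in Seurat 5.3.0 (2000 variable genes, 30 anchor dimensions, 15 components, resolution 0.5). The 10 genes were left out of the variable genes and of the naming lists. Clusters were named from lists by at least 3 markers at a log2 fold over 1. UMIs were summed per library and group. Intervals are exact (Poisson for CPM, Clopper-Pearson for shares, conditional binomial for ratios) at 95% and hold counting error alone. In ratios, 3 UMIs stood in for a count of 0. No test across nuclei was run, since nuclei are not replicates. The ratio and its interval were checked on simulated counts.

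The members, gene lists and cuts were chosen with earlier results of these data known. Named beside the 10 genes were the 3 genes with most UMIs of each list, the naming and leading genes of subclusters and the 3 most alike genes of PTPRC, CD163, CCL5 and FLI1, with exceptions stated. Results that name certain genes of the lists are not reported here. Alternatives tried were other resolutions, no integration, doublets or all barcodes kept, no mitochondrial limit, TMM (edgeR 4.0.16) and DESeq2 (1.42.0) factors, thinning, other definitions of leukocyte nuclei and leaving out single nuclei or subclusters.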

Additional observations from a re-analysis of the deposited data

Results flagged for a closer look

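Some of the 10 genes had log2 ratios of opposite sign in different groups of nuclei, with counting intervals clear of 0 on both sides. With 1 library per condition the differences between groups were not tested. PTPRC was higher after perfusion in STROMA (0.56) and lower in EC (-0.53) and in the immune cluster (-0.25). ARHGAP15 was higher in STROMA (1.62), in EC (1.18) and in the 8 tubule classes (0.66) and lower in the immune cluster (-0.25). DOCK2 was higher in STROMA (0.65) and lower in the immune cluster (-0.39). The values of these 3 genes in the immune cluster turned with the clustering, to 0.28, 0.33 and 0.0933 at resolution 1.0. Between the immune subclusters, PTPRC was at 0.35 in subcluster 2 and -0.44 in the T-like subcluster 3, and IKZF1 at 0.68 and -0.52.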

How the results depend on the processing

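No paired analysis was possible because each condition is 1 library, and no replicate could be left out. Over all nuclei the direction of each of the 10 genes held under the alternatives run, with 8 or 9 genes past 2-fold. The summed log2 ratio of 1.10 was 1.20 with TMM and 1.19 with DESeq2 factors, 0.99 with doublets kept, 0.99 over all deposited barcodes and 1.04 without the largest immune subcluster. The log2 ratio of nuclei with at least 2 genes (1.19) was 1.47 after thinning, 1.03 with doublets kept and 0.99 over all barcodes. The immune share (1.77) was 1.29 at resolution 1.0, 2.01 without integration, 1.41 in subclusters 2 and 3, 1.33 without the largest subcluster and 0.24 with a gate of 3 list UMIs, which takes in tubule nuclei. At resolution 0.3 no cluster was named immune.

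Within immune nuclei the summed log2 ratio of -0.06 depended on how the nuclei were chosen or scaled: 0.35 at resolution 1.0, -0.20 without integration, 0.0404 with doublets kept, 0.00879 with no mitochondrial limit, 0.14 with TMM and 0.15 with DESeq2 factors, 1.25 with the gate (9 genes past 2-fold in place of 1), 0.0135 without the richest nucleus of each gene, 0.22 without nuclei with a UMI of another lineage, -0.17 in leukocyte-rich nuclei, 0.0678 in subclusters 2 and 3 and 0.0222 without the largest subcluster. PTPRC turned positive at resolution 1.0 (0.28), with the gate (1.17), without nuclei of another lineage (0.12) and in subclusters 2 and 3 (0.0282). ARHGAP15 and DOCK2 did so at resolution 1.0 (0.33 and 0.0933) and with the gate (1.46 and 1.15). RUNX1 turned to -0.00637 without integration. The cause was not tested. CCL5 stayed between 1.41 and 2.39 in immune nuclei under the same alternatives. Leukocyte-rich nuclei, subclusters 2 and 3 and the subclusters left out were chosen after seeing the data. Counts under 10 UMIs in a library limit CCL5 and the macrophage receptors in single subclusters.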

Other observations

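Some leukocyte genes outside the 10 stood out in single subclusters, on few UMIs, and were singled out after their values were seen. CXCL9, an interferon-induced chemokine that attracts T cells, had no UMI in unperfused and 19 UMIs (68.2 CPM) in perfused nuclei of subcluster 2. CXCL10, of the same family, had 27 and 11 UMIs (243 and 36.7 CPM) in the endothelial-marked subcluster 4, and 3 and 27 UMIs (47.5 and 111 CPM) in the T-like subcluster. MZB1, a gene of plasma cells, had 5 and 45 UMIs over all nuclei (log2 ratio 3.15, 1.82 to 4.84), while TNFRSF17, another plasma cell gene, had 67 and 43 (-0.66, -1.25 to -0.09).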
